A study of Mus musculus with 2 samples.

Results

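Imprinted genes of postnatal growth form a network, of which H19, Cdkn1c, Grb10, Dlk1, Meg3, Gnas, Mest, Plagl1, Ndn and Peg3 are described here. They were taken by gene symbol from the counts of interscapular brown adipose tissue (iBAT), a fat depot of the upper back that makes heat, and all 10 were found among the 27179 genes listed for both libraries. The study compared wild-type (WT) C57BL/6N mice with Ucp1 knockout (Ucp1-KO) mice of the same strain at 20 days of age, with 1 RNA-seq library for each genotype. Both groups were untreated, and each library was made from the iBAT of 3 animals, described as male, that were pooled before sequencing. Uncoupling protein 1 (UCP1) is the protein of brown fat that lets mitochondria release energy as heat when it is active. The deletion is written as Δ/Δ, and no tissue-specific driver is named for it. The question addressed by the comparison is whether the imprinted growth network differed between the pools.

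Imprinted genes are transcribed mainly from the copy inherited from one parent, which is set by DNA methylation laid down in the egg or sperm. Many of them act on growth before and shortly after birth, with genes expressed from the paternal copy tending to promote growth and genes expressed from the maternal copy tending to restrain it. A set of them, the imprinted gene network, is switched down together in many organs as postnatal growth slows. In adipose tissue Dlk1 marks precursors, Mest is linked to fat cell size, and Gnas carries the signal of the beta-adrenergic receptors that activate brown fat. Gene-level counts do not separate the parental alleles, so all values below are sums over both copies.

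The zinc finger protein encoded by Plagl1, also named Zac1, regulates other imprinted genes and binds the letters GGGGCCCC, which read the same on both strands. These letters were searched in windows from 250 bases before to 50 bases after annotated starts, taken from RefSeq on build GRCm38.p6. They were present in 1.08% of all 32851 windows and in 1 of the 15 windows of the 8 imprinted growth genes in that table, that of Peg3. H19 and Cdkn1c have no window there. The core GCCATNTT of Yy1, a factor that binds the imprinted Peg3 domain, was searched on both strands and was in 6.05% of all windows and in 0 of these 15. The Peg3 window is shown for its match, since Peg3 had the largest excess in the Ucp1-KO pool among these genes. It gives the 250 bases before the start, at chr7:6730420-6730669 on the minus strand, with the match in capitals beginning 201 bases before the start.
Peg3 upstream window: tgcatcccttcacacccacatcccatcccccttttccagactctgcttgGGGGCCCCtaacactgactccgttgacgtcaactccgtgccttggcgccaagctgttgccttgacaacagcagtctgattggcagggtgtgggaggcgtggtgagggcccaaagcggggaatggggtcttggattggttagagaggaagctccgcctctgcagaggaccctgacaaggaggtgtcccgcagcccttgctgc

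Grb10 has 2 windows, and they are shown because the counts add up transcripts from both starts. The first lies at chr11:12037421-12037670 and the second at chr11:12027972-12028221, both on the minus strand, with each CpG, the pair of bases that carries DNA methylation, in capitals. The 250 bases held 40 CpGs at the first start and 8 at the second.
Grb10 upstream window 1: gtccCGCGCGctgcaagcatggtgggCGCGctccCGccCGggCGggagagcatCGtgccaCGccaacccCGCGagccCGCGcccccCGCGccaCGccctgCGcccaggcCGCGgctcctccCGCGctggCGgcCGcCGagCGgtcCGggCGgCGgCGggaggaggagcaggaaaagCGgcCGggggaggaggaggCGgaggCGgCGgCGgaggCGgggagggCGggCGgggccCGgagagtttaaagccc
Grb10 upstream window 2: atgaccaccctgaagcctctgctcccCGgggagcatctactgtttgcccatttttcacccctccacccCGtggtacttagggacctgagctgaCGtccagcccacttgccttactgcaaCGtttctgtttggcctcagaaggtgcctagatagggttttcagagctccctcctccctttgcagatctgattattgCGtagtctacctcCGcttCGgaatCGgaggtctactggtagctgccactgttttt

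Over the 300-base windows, the ratio of observed to expected CpGs was 0.97 at the first Grb10 start and 0.45 at the second. The 15 windows had a median ratio of 0.61 against 0.38 over all windows, and 13 of them lay above that median. Some windows of the same gene overlap, as for Gnas and for Mest, so the 15 are not independent.

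H19 is also the precursor of the microRNA miR-675, which is known as a brake on growth of the placenta. Its mature forms, from RefSeq on build GRCm38.p6, are given because H19 had the lowest ratio among these genes, with the seed, bases 2 to 8, in capitals. Libraries enriched for polyadenylated RNA do not measure mature microRNAs, and the Mir675 entry is listed at 0 in both libraries.
mmu-miR-675-5p: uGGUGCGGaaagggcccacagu
mmu-miR-675-3p: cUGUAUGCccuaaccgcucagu

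The WT library had 52950913 counts and the Ucp1-KO library 53216727, and with 1 library for each genotype there is no replicate error. Intervals in parentheses are exact 95% counting intervals, computed on read pairs. They cover counting error only and leave out the differences between animals, so no difference below was tested against the spread of animals. Normalized counts are counts divided by a median-of-ratios size factor, and the log2 ratio is that of Ucp1-KO over WT on normalized counts. Ucp1 itself had 366473 counts in WT and 37853 in Ucp1-KO, with a log2 ratio of -2.98. Mitochondrially encoded transcripts took 22.4% of the WT counts and 36.7% of the Ucp1-KO counts. Both pools are described as male, yet the Y-linked Ddx3y had 0 counts in WT and 3446 in Ucp1-KO, while Xist had 32380 and 16478 counts. The Y-linked Uty, Kdm5d and Eif2s3y likewise had 0 counts in WT, against 798, 570 and 491 in Ucp1-KO. The male label thus does not match the WT counts. The sex of the pooled animals and the genotype cannot be told apart in any ratio given here.

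Of the 10 imprinted growth genes, H19, Cdkn1c and Grb10 were lower in the Ucp1-KO pool by at least 2-fold, and Peg3 was at least 2-fold higher. Dlk1 and Meg3 were lower and Ndn, Plagl1 and Gnas higher by more than counting error, and Mest was the one gene whose interval held 0. The genes thus did not move as a block, and their median log2 ratio was 0.0030 against -0.0016 over the 15212 genes with a mean normalized count of at least 10, a minimum that all 10 passed. Among those 15212 genes 9.55% were at least 2-fold lower, against 3 of the 10 here. Another 7.42% were at least 2-fold higher, against 1 of 10. Those shares include genes of low count, whereas the lowest mean normalized count among the 10 was 389, for Dlk1. Among the 12846 genes with a mean of at least 50, 6.313% were at least 2-fold lower and 4.803% higher. The counting interval lay below 0 for 30.5% of the 15212 genes, against 5 of 10, and above 0 for 31.5%, against 4 of 10. An interval that leaves out 0 was thus common at this depth and does not set these genes apart.

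**Figure D1:**
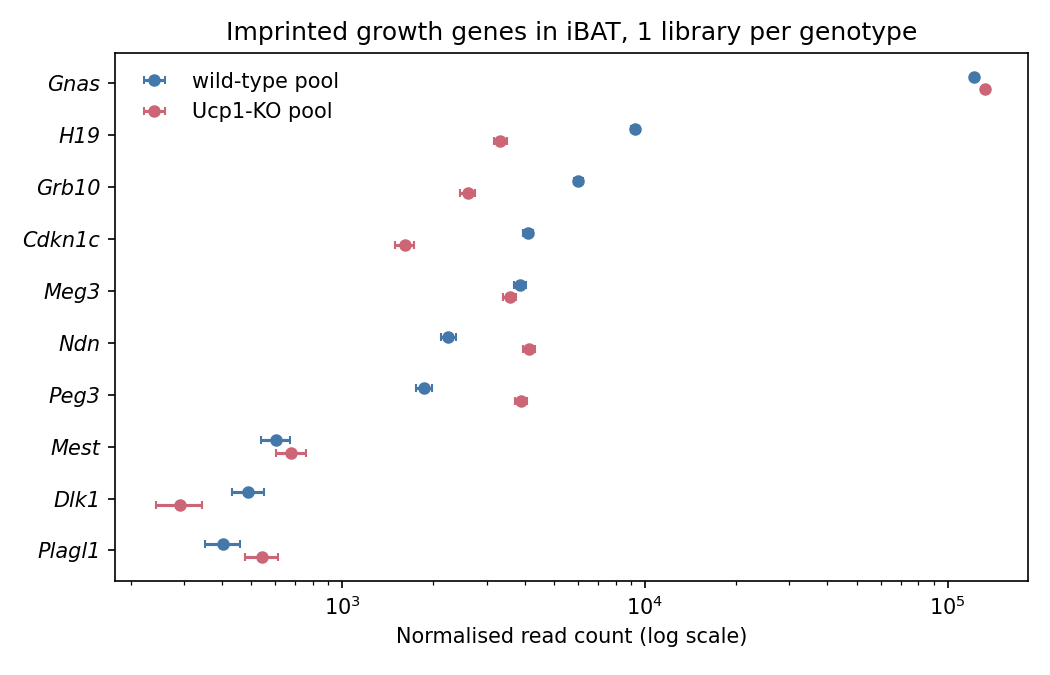
Normalized read count (log axis) of the 10 imprinted growth genes in the WT and the Ucp1-KO library, with 95% counting intervals. H19, Grb10 and Cdkn1c are further left in Ucp1-KO, Ndn and Peg3 further right, and Gnas lies far above the others at 122317 and 132713 normalized counts.

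The 3 genes that were at least 2-fold lower are known to restrain growth. Ndn, whose protein holds back cell division, was higher at 0.88 (0.78 to 0.99). H19 (Entrez gene 14955), a long noncoding RNA located on the minus strand of chromosome 7 (142129262 to 142133957, build GRCm39), had 10251 counts in WT (9972 to 10536) and 2998 in Ucp1-KO (2848 to 3154). Its level in the Ucp1-KO pool was 36.0% of the WT level (34.0% to 38.1%), a log2 ratio of -1.47 (-1.56 to -1.39). The intervals of both pools lay far apart, and 5.38% of the genes examined had a lower ratio.

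Cdkn1c (12577), which encodes the cell cycle inhibitor p57, lies on the same chromosome arm from 143012069 to 143014806 on the minus strand. It had 4556 counts in WT (4371 to 4747) and 1447 in Ucp1-KO (1343 to 1556). That is 39.1% of the WT level (35.9% to 42.5%) and a log2 ratio of -1.35 (-1.48 to -1.23). The other members of its inhibitor family differed less, with log2 ratios of -0.10 (-0.15 to -0.05) for Cdkn1a and -0.62 (-0.76 to -0.48) for Cdkn1b.

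Grb10 (14783), an adaptor protein that binds the insulin and IGF1 receptors and dampens their signal, is on chromosome 11 from 11880498 to 11988683 on the minus strand. It had 6683 counts in WT (6458 to 6914) and 2338 in Ucp1-KO (2206 to 2476). The Ucp1-KO level was 43.1% of the WT level (40.3% to 46.0%), with a log2 ratio of -1.22 (-1.31 to -1.12). Its close relative Grb14 went the other way at 0.42 (0.28 to 0.57), and Grb7 had 0 and 2 counts, too few to compare.

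Beside these lower values stands a difference in muscle transcripts. Of 23 skeletal muscle markers 22 were below 0 and 21 were lower in Ucp1-KO by at least 2-fold, with a median log2 ratio of -2.55, a range from -3.92 for Pvalb to 0.015 for Mylk2 and none at 0 counts. Their summed level was 396064 counts in WT and 53436 in Ucp1-KO, or 0.75% and 0.10% of all counts. H19, Cdkn1c and Grb10 are also expressed in skeletal muscle, and the part of muscle in their ratios was not tested. Within 500 kb of H19, the muscle troponin genes Tnnt3 and Tnni2 had log2 ratios of -2.82 (-2.90 to -2.74) and -2.55 (-2.67 to -2.44). Nctc1, a noncoding RNA transcribed near the muscle enhancer of H19 and Igf2, had 212 counts in WT and 16 in Ucp1-KO, or a log2 ratio of -3.39 (-4.68 to -2.40). The 15 genes examined within 500 kb of H19 had a median log2 ratio of 0.027. Of these, 4 were at least 2-fold lower and 1 at least 2-fold higher, Dusp8 at 1.83 (1.62 to 2.05). In bulk tissue, fewer cells of a type and less RNA per cell cannot be told apart. Whether the muscle transcripts came from the depot itself or from muscle collected with it was not tested.

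**Figure D2:**
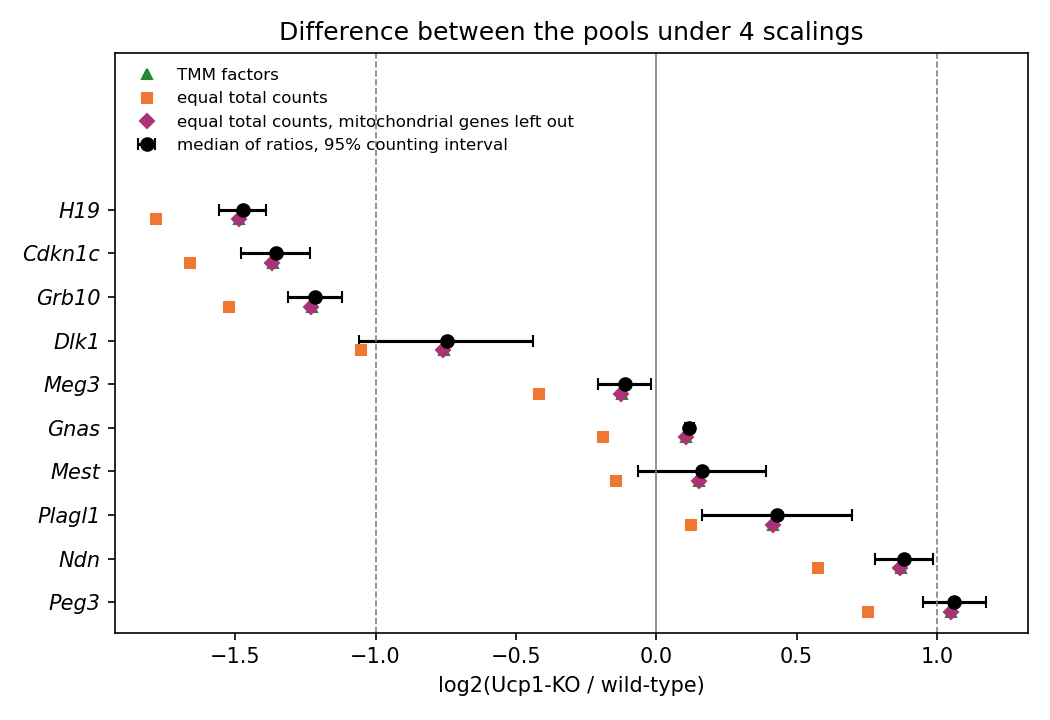
Log2 ratio of Ucp1-KO over WT for the 10 imprinted growth genes (black, with 95% counting intervals) and under the 3 other scalings; dashed lines mark a 2-fold difference. H19, Cdkn1c and Grb10 lie left of -1 under all 4 scalings, whereas Gnas moves from 0.12 to -0.19 when totals are set equal.

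Dlk1 and Meg3 share a cluster on chromosome 12 and are expressed from opposite parental copies. Dlk1 (13386), a transmembrane protein of preadipocytes that holds back fat cell differentiation, spans 109418749 to 109429262 on the plus strand. It had 541 counts in WT (478 to 610) and 262 in Ucp1-KO (219 to 311), giving a log2 ratio of -0.75 (-1.06 to -0.44). The Ucp1-KO level was 59.6% of the WT level (48.0% to 73.7%), lower beyond counting error but short of 2-fold. Its relative Dlk2, at 8 and 26 counts, went the other way at 1.93 (0.31 to 4.07). Markers of preadipocytes and fibroblasts also lay lower, 11 of 12 below 0 with a median of -0.24 and a range from -0.84 for Col15a1 to 0.09 for Dpp4. Their part in the Dlk1 ratio was not tested.

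Meg3 (17263), the long noncoding RNA of the maternal copy, spans 109506877 to 109538165 on the plus strand. It had 4289 counts in WT (4109 to 4474) and 3225 in Ucp1-KO (3069 to 3386), giving a log2 ratio of -0.11 (-0.21 to -0.018). At 92.6% of the WT level (86.7% to 98.8%) it differed little. The noncoding Rian, transcribed on from Meg3 on the same strand, was lower at -0.47 (-0.57 to -0.37), and Mirg was within counting error at 0.25 (-0.36 to 0.87).

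Among the 5 genes expressed from the paternal copy, Dlk1 was the one that was lower. Peg3 (18616), a zinc finger protein involved in maternal behavior and body fat, is on chromosome 7 from 6706882 to 6733468 on the minus strand. It had 2068 counts in WT (1944 to 2198) and 3509 in Ucp1-KO (3347 to 3677), giving a log2 ratio of 1.06 (0.95 to 1.17). The Ucp1-KO pool thus held 209% of the WT level (193% to 226%), and 6.73% of the genes examined had a higher ratio. The interval of the ratio reaches below 2-fold. Zim1 in the same cluster was higher at 0.50 (0.16 to 0.84). Usp29, which starts beside Peg3 and runs the opposite way, had 0 counts in WT and 13 in Ucp1-KO, below the minimum level.

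Ndn (17984), whose protein necdin holds back cell division and brown adipogenesis, is a gene of 1 exon on chromosome 7 from 61995473 to 62000010 on the plus strand. It had 2487 counts in WT (2351 to 2629) and 3726 in Ucp1-KO (3559 to 3899), giving a log2 ratio of 0.88 (0.78 to 0.99). The Ucp1-KO level was 184% of the WT level (172% to 198%), just short of 2-fold. Magel2, its neighbor from the same MAGE family, went in the same direction from a low level, with 11 counts in WT and 144 in Ucp1-KO and a log2 ratio of 3.94 (2.77 to 5.58). The MAGE relatives Maged1 and Maged2, which are not imprinted, had log2 ratios of -0.03 (-0.11 to 0.05) and 0.38 (0.18 to 0.59).

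Plagl1 (22634), the regulator named above, is on chromosome 10 from 12936248 to 13007438 on the plus strand. It had 447 counts in WT (390 to 510) and 489 in Ucp1-KO (430 to 554), giving a log2 ratio of 0.43 (0.16 to 0.70). Its level in the Ucp1-KO pool was 135% of the WT level (112% to 162%). Its relatives were on both sides of 0, Plag1 at -0.21 (-0.79 to 0.35) and Plagl2 at 0.52 (0.28 to 0.77).

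Mest (17294), a hydrolase-like protein that rises when fat cells expand, is on chromosome 6 from 30723546 to 30752058 on the plus strand. It had 669 counts in WT (599 to 745) and 609 in Ucp1-KO (543 to 681), and its log2 ratio of 0.16 (-0.065 to 0.39) did not exceed counting error. Levels in Ucp1-KO from 95.6% to 131% of the WT level lie within that interval. Copg2, which overlaps Mest tail to tail, had a log2 ratio of 0.15 (-0.00058 to 0.29).

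Gnas (14683), which encodes the stimulatory G protein subunit that couples beta-adrenergic receptors to cyclic AMP, is on chromosome 2 from 174126022 to 174188537 on the plus strand. It had 135703 counts in WT (134684 to 136728) and 119622 in Ucp1-KO (118665 to 120585). The log2 ratio of 0.12 (0.10 to 0.13), or 108% of the WT level (107% to 110%), was small and depended on scaling, since the counts as deposited were lower in Ucp1-KO and the ratio was -0.19 with totals set equal. The locus makes several proteins from separate starts, of which this subunit is biallelic in most tissues, and gene counts add them up. Of other G protein subunits, Gnal was lower at -1.07 (-1.56 to -0.61), Gna11 at -0.24 (-0.33 to -0.15) and Gnai2 at -0.09 (-0.16 to -0.03), and Gnaq was within counting error at -0.09 (-0.21 to 0.03).

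**Figure D3:**
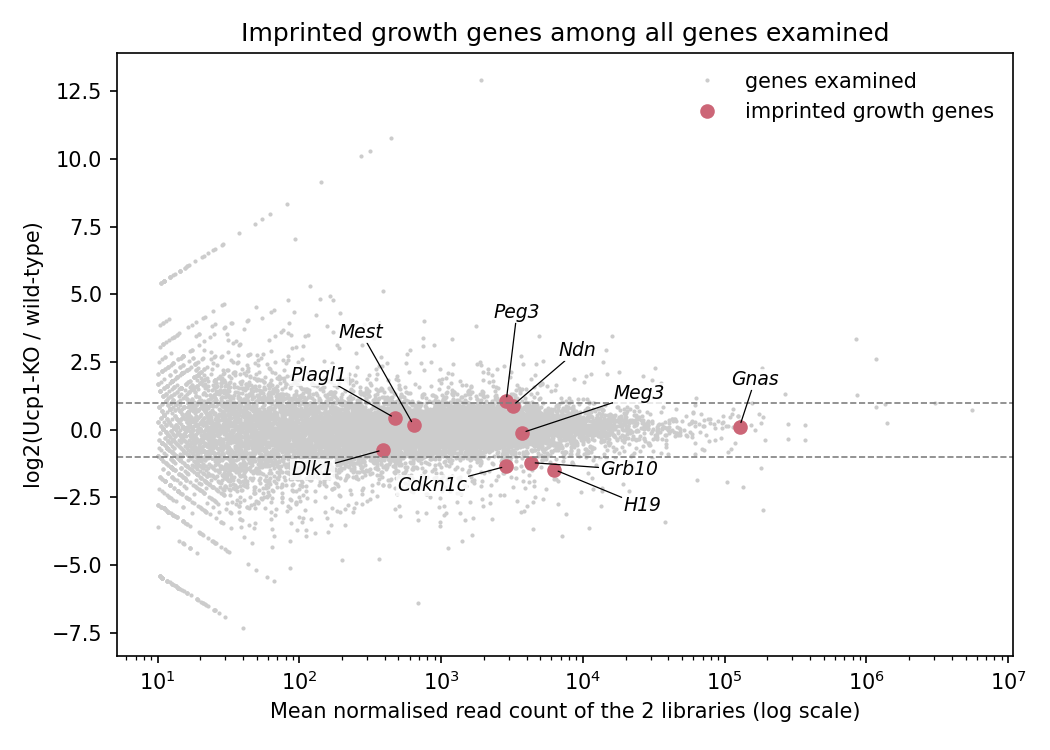
Log2 ratio of Ucp1-KO over WT against the mean normalized count (log axis) for the 15212 genes examined (grey) and the 10 imprinted growth genes (red); dashed lines mark a 2-fold difference. Each imprinted growth gene lies inside the grey cloud, from H19 at -1.47 to Peg3 at 1.06, and genes of similar level lie beyond both.

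By parental copy, the 4 genes expressed mainly from the maternal copy, H19, Cdkn1c, Grb10 and Meg3, all had log2 ratios below 0. Of the 5 paternally expressed genes, Dlk1 was below 0 and the other 4 above, of which Mest was within counting error and turned to -0.14 with totals set equal. Gnas, whose products differ in the copy they come from, was placed in neither group. Counted as maternal, it was above 0, which leaves 4 of 5 maternal genes below 0. Of all 15212 genes examined, 7620 were below 0. This grouping was made after the values had been seen and is given as a description.

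Levels per kb of the canonical transcript in the GENCODE annotation give the order within a library. In WT, Gnas came first at 32522 normalized counts per kb, followed by H19 at 4175, Meg3 at 2334 and Cdkn1c at 2128. Grb10 at 1184, Ndn at 607 and Mest at 478 took the middle, and Peg3 at 213, Dlk1 at 109 and Plagl1 at 74.8 came last. In Ucp1-KO, Gnas remained first at 35287, but Meg3 at 2161 stood above H19 at 1503. Ndn at 1119 moved above Cdkn1c at 832, and Plagl1 at 101 above Dlk1 at 64.8. Mest at 535 and Grb10 at 510 overlapped in their counting intervals there, with Peg3 next at 445, whereas no other neighbors in either order did. The orders depend on the length used. With the length of all annotated exons, Meg3 dropped to 200 normalized counts per kb in WT and Mest to 74.7, the sixth and the ninth place, and Ndn stood just above Grb10. In Ucp1-KO by that length, H19 stood above Meg3 and Peg3 above Grb10 and Mest. Gnas came first in both libraries by either length.

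The clusters around these genes differed, some with ratios on both sides of 0 and others with a single sign. Igf2, the fetal growth factor that shares enhancers with H19, was lower in Ucp1-KO with 4147 and 2305 counts, a log2 ratio of -0.55 (-0.65 to -0.44) that was closer to 0 than that of H19. In the neighboring domain of Cdkn1c, the paternal noncoding RNA Kcnq1ot1 was higher at 0.44 (0.21 to 0.66), Kcnq1 was within counting error at 0.08 (-0.41 to 0.57) and Slc22a18 was lower on few counts, 32 and 4. Near Grb10, Cobl, an actin-nucleating protein, had 201 counts in WT and 17 in Ucp1-KO, giving a log2 ratio of -3.23 (-4.47 to -2.26). Ddc, the enzyme of dopamine and serotonin synthesis, had 36 and 1 counts.

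In the Dlk1 and Meg3 cluster, Begain was lower at -0.88 (-1.51 to -0.28) and Rtl1, at 9 and 16 counts, was within counting error. In the Ndn cluster, Ube3a was higher at 0.67 (0.54 to 0.80) and Peg12 lower at -1.95 (-3.40 to -0.78), while Mkrn3 at -0.63 (-2.21 to 0.77) and Atp10a at -0.08 (-0.55 to 0.39) did not exceed counting error. Snrpn and Snurf, which share exons, were both listed at 0 in either library, as were Ascl2, Phlda2 and Dio3. Klf14 near Mest had 0 and 8 counts. Within 500 kb of the 10 genes, 78 other genes were examined, of which 13 (16.7%) were at least 2-fold lower and 9 (11.5%) at least 2-fold higher, against 9.55% and 7.42% of all genes examined. Of these 13 lower genes 4 lie beside H19, namely Tnnt3, Tnni2, Nctc1 and Prr33.

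**Figure D4:**
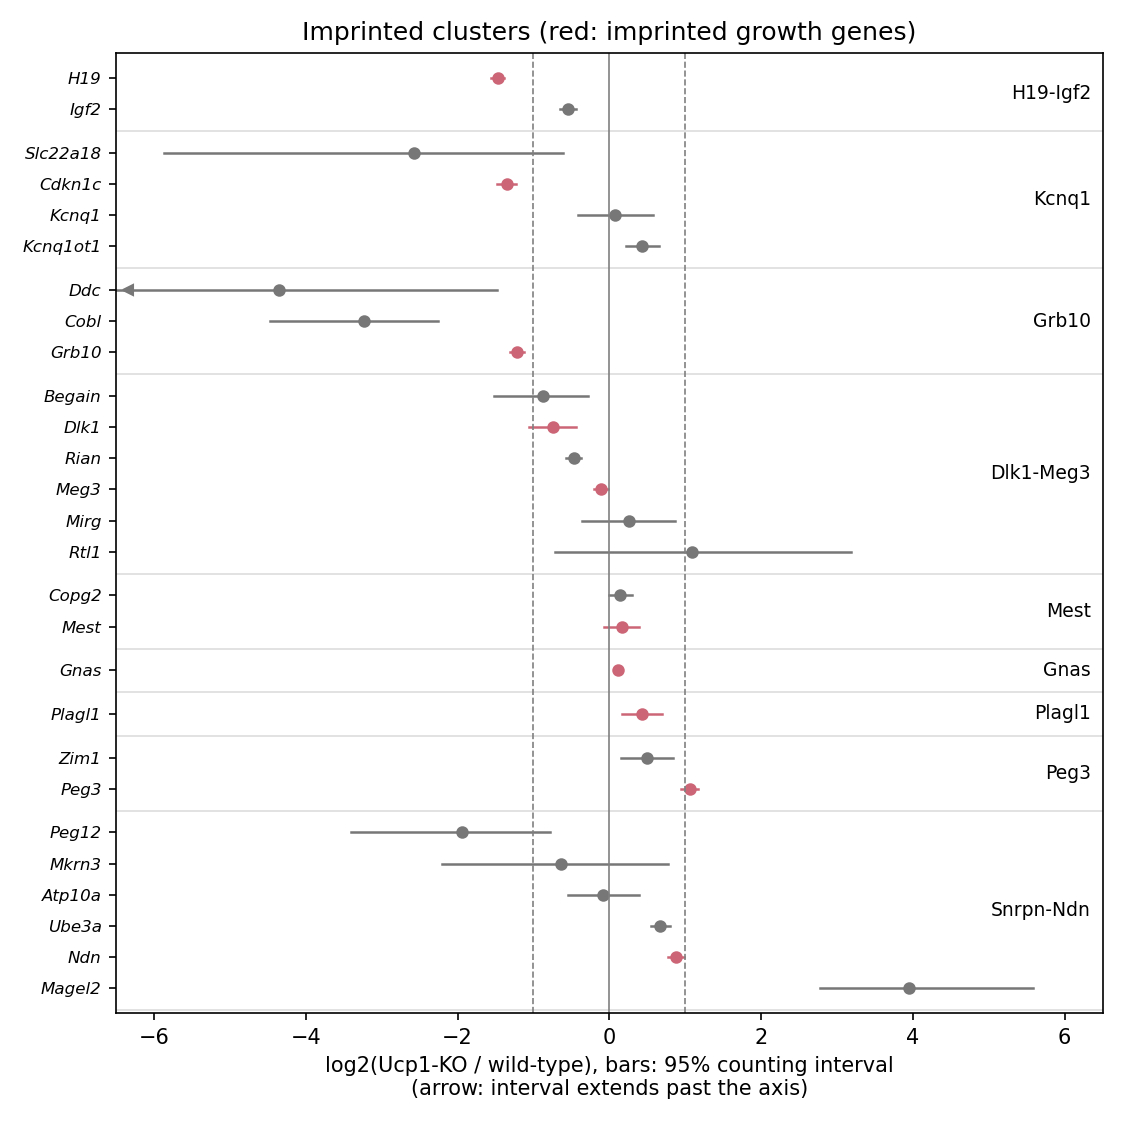
Log2 ratio of Ucp1-KO over WT with 95% counting intervals for the imprinted genes that share a cluster with the 10 imprinted growth genes (red), one row for each gene with a mean normalized count of at least 10. Some clusters hold genes on both sides of 0, for example Peg12 at -1.95 and Magel2 at 3.94 around Ndn. All 3 genes of the Grb10 cluster lie below 0, and the interval of Ddc runs past the axis.

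The wider set of imprinted genes had a median near that of all genes. Whether each of them is imprinted in brown fat was not tested, since the counts do not separate the alleles. Of 55 further imprinted genes on the list, 52 were found and 42 were examined, with a median log2 ratio of -0.0024. Of these, 4 were at least 2-fold lower and 4 at least 2-fold higher, where 9.55% and 7.42% of all genes examined were.

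In the IGF and insulin axis, on which several of these genes act, 9 of 11 genes were below 0 and 2 were at least 2-fold lower, with a median of -0.52 and the lowest ratio for Igfals at -1.27 (-2.17 to -0.47). Igf1 was lower with 1439 and 577 counts, a log2 ratio of -1.02 (-1.22 to -0.82), and Igf1r was lower at -0.52 (-0.68 to -0.37), whereas the adaptor Irs1 was higher at 0.67 (0.57 to 0.78). A list of 11 genes of the fetal growth program, which the imprinted network accompanies, had a median of 0.11 over the 9 examined, with Igf2bp2 higher at 1.53 (1.25 to 1.82), Igf2bp1 higher on 1 and 20 counts, and Igf2bp3 lower at -1.01 (-1.68 to -0.38). The lowest ratio on that list was that of Mycn at -1.39 (-3.36 to 0.15).

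Brown adipocyte markers, which check the tissue, were present in both pools, and 10 of 12 were higher in Ucp1-KO, with a median of 0.53 and a range from -1.08 for Adrb3 to 2.52 for Elovl3. Endothelial markers were lower for 11 of 12, with a median of -0.85 and a range from -1.39 for Emcn to 0.50 for Cldn5, and their summed level was 0.305% of the WT and 0.148% of the Ucp1-KO counts. The 10 macrophage markers had a median of 0.10, from -0.47 for Cd163 to 2.04 for Itgam. The 14 proliferation genes had a median of -0.13, from -1.66 for Mcm5 to 1.04 for Bub1. Among 6 muscle precursor genes, 3 could be examined, with a median of -4.33 and a range from -5.42 for Myh3 to 0.18 for Myod1. Myh3 had 129 and 2 counts and Myod1 26 and 24. The part of these cell types in the ratios of the imprinted growth genes was not tested.

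**Figure D5:**
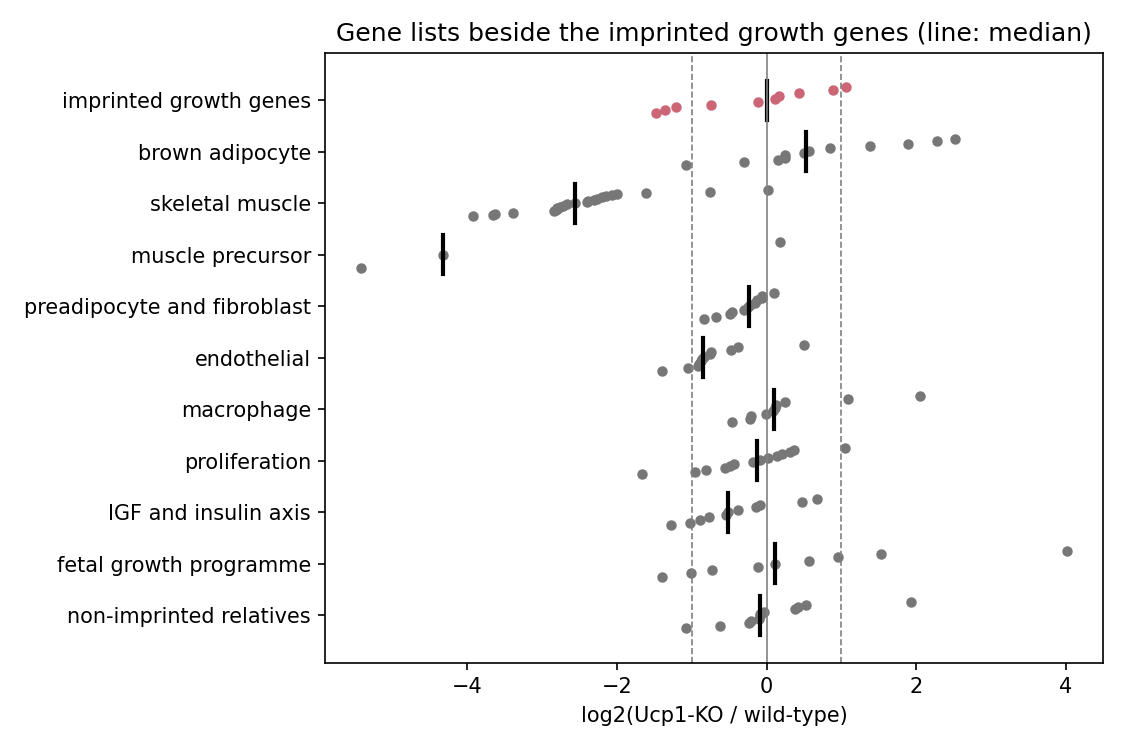
Log2 ratio of Ucp1-KO over WT for each examined gene (points) of the imprinted growth genes (red) and of 10 other lists, with the median of each list as a black line. The imprinted growth genes are centered on 0 with both signs, while skeletal muscle markers lie at a median of -2.55 and endothelial markers at -0.85.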

How the data were processed

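RNA was extracted from iBAT with a Promega kit, made into directional libraries enriched for polyadenylated RNA and sequenced by Novogene. Per the labels, the authors used Trim Galore and HISAT2 with mouse build mm39, and the deposited values are whole-number counts per gene from featureCounts, not normalized. Annotation and the settings for strand and multiply mapped reads are not given in the sources used here, so counts of overlapping genes, and of a gene and its antisense partner, are uncertain.

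Both libraries were scaled by DESeq2 1.42.0 median-of-ratios size factors (1.11 for WT, 0.901 for Ucp1-KO; R 4.3.3), and 0.5 was added before the log2 ratio. Low counts were mostly even (70.7% and 73.4% of values from 1 to 10), so intervals were computed on counts divided by 2, exact Poisson for counts and conditional Clopper-Pearson for ratios (scipy 1.17.1). The limit for a count of 0 was set at 3 read pairs, or 6 counts (0.113 CPM, counts scaled to equal totals), a one-sided bound below the upper end of the two-sided interval. With 1 library per genotype no p-value was computed. The scripts were checked on simulated data. Members and gene lists were chosen with earlier results of these data known. All 10 members were named, with the genes sharing a cluster with them, their non-imprinted relatives and, per marker list, the count, median and range. H19 neighbors, IGF axis genes and fetal genes given beside these were picked after their values were seen. The result of 1 marker list is not reported here. Positions are from GENCODE release M39 and were joined by symbol. Alternatives covered edgeR 4.0.16 TMM factors, equal totals with and without mitochondrially encoded genes, the pseudocount, the filter, the size rule and the interval.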

Additional observations from a re-analysis of the deposited data

How the results depend on the processing

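No paired analysis was possible because the comparison rests on 1 library of each genotype, which also left no replicate to drop. In 27 of 32 recomputations, a count of imprinted growth genes stayed within 1.5-fold of the main count, or their median stayed within a band. The band runs between the medians of the lower and upper interval ends of the 10 genes and is not a counting error of the median. By that rule 4 genes at least 2-fold lower, with totals set equal, stand as unchanged from 3. Scaling to equal total counts moved the median of all genes to -0.31, with 2320 genes at least 2-fold lower and 732 higher against 1453 and 1128, and it moved the median of the 10 genes to -0.30 and that of the wider imprinted list to -0.31. Under it 0 of the 10 genes were at least 2-fold higher and 2 lay above counting error, Peg3 was at 0.76, and Gnas turned to -0.19. Dlk1 passed 2-fold there, at -1.05. That scaling includes the mitochondrially encoded counts, and without them its values were close to the main ones (median of all genes -0.015). With a log2 ratio of 1.5 as the size rule, 0 of the 10 genes were lower and 0 higher, against 5.23% and 3.96% of all genes examined. With intervals on the counts as deposited, 5 of the 10 genes lay above counting error against 4, since Mest was then above it too. Of 40 recomputed ratios of single genes, 31 moved by less than counting error, 8 moved by more and 1, that of Gnas, reversed. Of the 8, Mest, which was within counting error, also changed sign, to -0.14 with totals set equal. Depth limits the genes under 100 counts most, such as Ddc, Slc22a18 and Rtl1.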

Other observations

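Of the imprinted genes that share no cluster with the 10 growth genes, Zdbf2, which acts in the hypothalamus on feeding of newborn mice, was higher in the Ucp1-KO library with 220 and 511 counts, a log2 ratio of 1.51 (1.19 to 1.85). Slc22a3, an organic cation transporter of the Igf2r cluster, was higher with 842 and 1511 counts, a log2 ratio of 1.14 (0.97 to 1.32), while Igf2r, which clears IGF2 from the cell surface, was at -0.09 (-0.19 to 0.01). The amino acid transporter Slc38a4 was lower with 337 and 162 counts, a log2 ratio of -0.76 (-1.16 to -0.37). In the Peg10 cluster, Sgce was lower at -0.22 (-0.41 to -0.02) and Peg10 higher at 0.49 (0.08 to 0.90), although both are expressed from the paternal copy. Herc3 was higher at 0.79 (0.66 to 0.92) and Nap1l5, which lies within it, had a log2 ratio of -0.39 (-0.95 to 0.15). Of the host and partner pair Blcap and Nnat, Blcap was higher at 0.50 (0.41 to 0.60) and Nnat lower at -0.44 (-0.75 to -0.14). These genes were picked after their values were seen.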
